A study of Mus musculus with 54 samples.

Results

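The genes described here were 6 of the mouse carbonic anhydrases, Car2, Car3, Car4, Car12, Car14 and Car15, chosen by name from the 33126 genes listed in the count tables of a mouse kidney study. They were followed through 39 single-cell or single-nucleus libraries and 15 bulk RNA-seq libraries, which fell into 18 groups of 3 libraries that the series calls biological replicates. The C57BL/6J mice were males of 19 weeks from a single litter, all of the AFAPIL.1DEL genotype, with no wild-type C57BL/6J group beside them. Their kidneys were dissociated with a cold-active protease or by warm enzymatic digestion. Each suspension was profiled fresh, after 6 weeks of cryopreservation or after 3 months of methanol fixation, and the fresh suspensions were also profiled in bulk. The Balb/c males were 18 weeks old, from a single litter, and gave fresh cold-dissociated cells, nuclei washed by the 3x500g protocol and bulk RNA of intact kidney. The Balb/c females were wild-type former breeders of 15 weeks. They gave cold-dissociated cells, fresh or cryopreserved for 2 weeks, nuclei by the 3x500g, 1x2000g or sucrose protocol, and bulk RNA of intact kidney and of the cold suspension. Nuclei came from flash-frozen kidneys, and nuclear libraries counted intronic as well as exonic reads, where cell libraries counted exonic reads.

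Carbonic anhydrases interconvert carbon dioxide and bicarbonate, and in the kidney they serve bicarbonate reabsorption in the proximal tubule and acid or base secretion by the intercalated cells of the collecting duct. Car2 is the main cytosolic enzyme of the kidney, and Car3 is a cytosolic enzyme of low activity that is best known from muscle, liver and fat. Car4 and Car15 are held at the cell surface by a glycolipid anchor. Car12 and Car14 are transmembrane enzymes with an extracellular active site.

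The upstream sequences of Car4, Car12 and Car14 are shown because Car4 and Car14 were lower after cryopreservation in Balb/c females and in nuclei, where Car12 differed in size or in direction. Each is the 250 bases before the RefSeq start of transcription on GRCm38.p6, written 5′ to 3′ along the strand of the gene. They lie at chr11:84957504-84957753 on the plus strand for Car4, chr9:66713436-66713685 on the plus strand for Car12 and chr3:95904686-95904935 on the minus strand for Car14.
Car4: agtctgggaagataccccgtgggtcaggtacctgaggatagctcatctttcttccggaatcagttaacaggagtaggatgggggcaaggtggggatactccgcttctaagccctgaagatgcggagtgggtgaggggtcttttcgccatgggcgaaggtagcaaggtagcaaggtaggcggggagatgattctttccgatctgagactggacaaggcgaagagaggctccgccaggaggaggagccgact
Car12: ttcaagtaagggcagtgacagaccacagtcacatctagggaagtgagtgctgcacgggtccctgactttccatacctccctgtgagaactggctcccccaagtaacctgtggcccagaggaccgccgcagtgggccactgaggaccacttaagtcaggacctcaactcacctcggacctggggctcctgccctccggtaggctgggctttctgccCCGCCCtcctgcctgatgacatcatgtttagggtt
Car14: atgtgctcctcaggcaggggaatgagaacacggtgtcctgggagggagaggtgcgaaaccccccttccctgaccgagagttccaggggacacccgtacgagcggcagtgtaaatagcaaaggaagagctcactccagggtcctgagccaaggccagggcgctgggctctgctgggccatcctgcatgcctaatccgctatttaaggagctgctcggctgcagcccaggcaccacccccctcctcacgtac
Capitals mark a match to a motif searched. The motifs were the TATA box spelled TATAAA, the CCAAT box, the GC box spelled GGGCGG, the core letters GTTAAT of HNF1 sites, the forkhead letters TGTTTAC, the E box spelled CACGTG and the HNF4 letters CAAAGTCCA, each searched on both strands. Car12 held 1 match, a GC box on the opposite strand at base 216 of the window, and 32.7% of the 32851 promoters in the RefSeq table hold a GC box in this window. Car4 and Car14 held no match. GC content was 56.4% for Car4, 59.2% for Car12 and 62% for Car14. A match is a description of letters, and no match says only that those letters are not in this window.

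The single-cell and single-nucleus libraries held 782 to 9308 barcodes and 983522 to 35170947 UMIs, and the bulk libraries held 2326998 to 31093949 counts. The authors kept genes seen in at least 10 barcodes, so a member at 0 or not listed is given a limit of 9 barcodes. Barcodes were also filtered, and up to 12.2% of the genes above 0 in a library were left in 1 to 9 barcodes. Car3 and Car14 were at 0 in all 6 cryopreserved C57BL/6J libraries, and Car3 was not listed in the Balb/c female cells. Barcodes found in more than 1 library made up 6.21% of those of the C57BL/6J cells and 0.518% to 2.26% of those of the other sets. Cell classes were rebuilt by clustering with all carbonic anhydrases left out of the clustering genes, and were named from fixed markers. They are written as "-like" classes, and a level in one class against another is a description with no test. Of the 6 genes, Car15 is the least certain: 65.7% of its 1906 exon bases lie in exons of Gm20518, a gene on the same strand. Its span on chromosome 16, 17835276-17838364, lies almost wholly within that of Gm20518, 17835277-17891671. Where introns were counted, as in nuclei, the overlap therefore covers nearly the whole gene. How reads on both genes were counted is not given in the sources used here. In Car14, 17.5% of 2543 exon bases lie in exons of Aph1a on the opposite strand, and whether the bulk counting used strand is not given in the sources used here.

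In bulk RNA, in TPM, which is per exon length, Car2 had the highest mean of the 6 genes in all 5 groups and Car3 or Car15 the lowest. In CPM, which is not per length, Car12 had the highest mean in all 5 groups, at 460.2 against 305.2 CPM for Car2 in the cold C57BL/6J suspensions, 428.4 against 300 in the warm ones, 464.5 against 223 in intact male kidney, 529.6 against 470.1 in intact female kidney and 674.3 against 601.4 in the female suspensions. In TPM Car2 averaged 698.8 ± 5.70 (SD, n = 3) in intact Balb/c female kidney and stood at 343.6, 234.2 and 356.6 in intact Balb/c male kidney. Car12 followed in the females at 251.1 ± 12.9 TPM (SD, n = 3), above Car4 at 197.4 ± 15.1 and Car14 at 151.3 ± 4.10, and none of these libraries overlapped from gene to gene. In the males Car4 came second at 269.2 ± 42.6 TPM and then Car12 at 207.0 ± 40.9, and Car2 overlapped with Car4 and Car4 with Car12. In the C57BL/6J suspensions Car4 was also second, at 365.4 ± 30.1 TPM after cold and 405.4 ± 22.2 after warm dissociation, against 454.1 ± 20.3 and 451.5 ± 41.2 for Car2. Car15 averaged between 0.824 and 3.87 TPM in the 5 bulk groups, on 0 to 66 counts. The female libraries were made by poly(A) selection and the male libraries by rRNA depletion. The intact male and female groups also differed in age, litter, breeding history, read length and depth. Sex cannot be told apart from these or from the library kit, and no test was run between the sexes.

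As a ratio of levels, Car3 set intact male and female Balb/c kidney far apart in bulk, as a description. It stood at 80.65, 68.41 and 91.57 TPM in intact male Balb/c kidney and at 17.65, 1.019 and 2.654 TPM in intact female kidney. The male libraries did not overlap with the female libraries. The summed level of 15 proximal tubule markers was 45112 to 46737 TPM in males and 26682 to 28975 TPM in females. That of 10 adipocyte markers was 64.19, 55.17 and 84.71 TPM in males and 73.65, 23.46 and 27.33 TPM in females, with overlap. Their part in the Car3 difference was not tested. Car3 also varied between libraries of a group: 110.5, 92.65 and 33.23 TPM in the cold C57BL/6J suspensions and 81.00, 19.62 and 94.23 in the warm ones, with 1 low library in each.

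**Figure D1:**
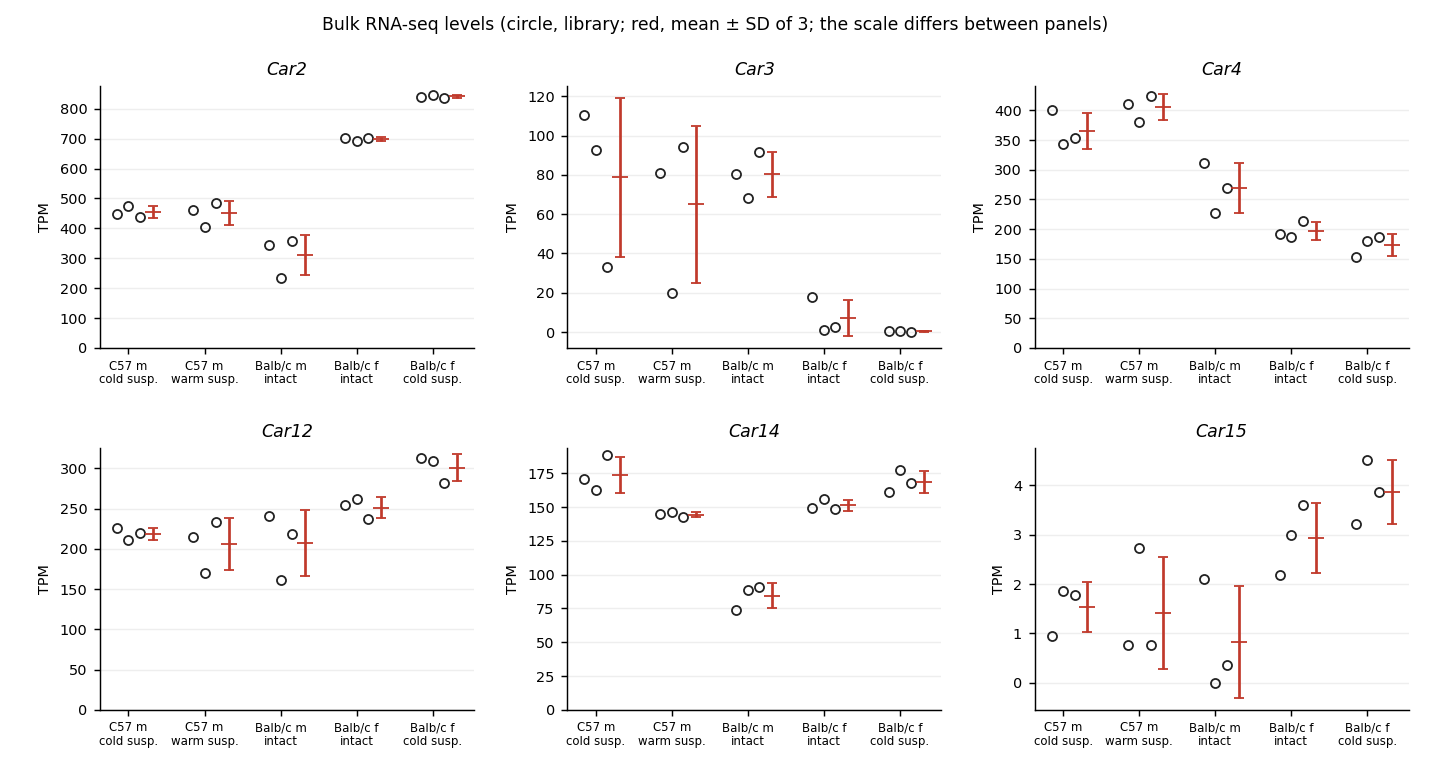
Level of the 6 carbonic anhydrases in each bulk library, in TPM on linear axes whose scale differs between panels, by group (susp., suspension); each circle is 1 library and the red marks give the mean ± SD of 3. Car2 has the highest mean of the 6 in all 5 groups, and Car3 is spread from 0.1978 TPM in a female suspension to 110.5 TPM in a cold C57BL/6J suspension.

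Intact Balb/c female kidney was compared with the cold suspension made from such kidneys. Of the 6 members 4 were called, 1 higher and 3 lower in intact kidney, where 20% of all genes tested were called, 12.1% higher and 7.91% lower. The median log2 fold change of the members was -0.28, against 0.00 for all genes. In bulk samples, fewer cells of a type and less RNA per cell cannot be told apart. Car2 was lower in intact kidney, by a log2 fold change of -0.34 (SE 0.05, edgeR adjusted p = 0.00121), with 703.2, 692.4 and 700.9 TPM in intact kidney and 840.3, 846.1 and 837.5 TPM in the suspensions. Car12 was lower by -0.33 (SE 0.06, adjusted p = 0.00486) and Car14 by -0.23 (SE 0.05, adjusted p = 0.00844). Car4, at 0.11 (SE 0.08, adjusted p = 0.39), and Car15, at -0.49 (SE 0.22, adjusted p = 0.158), did not pass. Car2 is also an enzyme of red cells, and all 5 erythroid markers tested were lower in intact kidney, with a summed level of 261.6 to 981.7 TPM against 1063 to 3988 TPM in the suspensions. Their part in the Car2 difference was not tested.

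Car3 was higher in intact kidney by 4.23 (SE 1.17, adjusted p = 0.0308). Intact kidney held 17.65, 1.019 and 2.654 TPM, so that the size of the change rests largely on replicate 1. The suspensions held 0.5363, 0.3647 and 0.1978 TPM on 4 to 10 counts, and the call was lost without any 1 of the 3 suspensions (adjusted p 0.0847 to 0.0924). The intact library highest in Car3, replicate 1, was also the highest in the summed level of 10 adipocyte markers. That sum was 73.65, 23.46 and 27.33 TPM in intact kidney, with 9 or 10 of the 10 markers above 0, and 16.34 to 20.16 TPM in the suspensions, with 5 or 6 above 0. Of the defining markers of fat cells, Adipoq had 68, 3 and 9 counts in intact kidney and 1, 1 and 0 in the suspensions, and Plin1 had 68, 2 and 8 counts and 1, 0 and 1. Of the 10 adipocyte markers 3 were tested. Cfd was higher at 7.55 (SE 1.65, edgeR adjusted p = 0.0108), while Lipe at 0.00 (adjusted p = 0.98) and Plin4 at 0.10 (adjusted p = 0.794) did not pass. Of 8 skeletal muscle markers, the summed level was 390.1 to 446.7 TPM in intact kidney and 504.7 to 538.5 in the suspensions. The part of fat in the Car3 difference was not tested.

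Of 10 other carbonic anhydrases on a list, 7 were tested in this comparison, 1 rose and 1 fell. Car5a, a mitochondrial carbonic anhydrase, was at 42.17, 31.42 and 36.45 TPM in intact kidney and 3.558, 2.536 and 3.175 TPM in the suspensions, so that the groups did not overlap. Its log2 fold change was 3.50 (SE 0.18, adjusted p = 2.0e-06). Car13, a cytosolic enzyme, was lower by -0.42 (SE 0.10, adjusted p = 0.0196). Of 32 genes of acid-base transport, 31 were tested, 2 were higher and 7 lower. Among them were the water channel Aqp1 at 0.71 (SE 0.06, adjusted p = 5.5e-05), the ammonia transporter Rhbg at -0.70 (SE 0.11, adjusted p = 0.00235) and the anion exchanger Slc4a9 at -0.72 (SE 0.18, adjusted p = 0.0218).

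Warm against cold dissociation, in bulk RNA of C57BL/6J suspensions, changed little among the members. Car14 fell by 0.31 on the log2 scale (SE 0.08, adjusted p = 0.0353), from 170.5, 162.5 and 188.3 TPM after cold to 144.6, 146.1 and 142.6 after warm dissociation, and the libraries did not overlap. It was the 1 call among 5 members tested, where 8.68% of all genes tested were called, 5.42% higher and 3.26% lower, and it was lost without any 1 of 5 of the 6 libraries (adjusted p 0.0592 to 0.138). Of 15 proximal tubule markers tested, 0 were higher and 2 lower after warm dissociation, Fbp1 at -0.29 (adjusted p = 0.018) and Keg1 at -0.37 (adjusted p = 0.0167), with a median of -0.19, and their part in the Car14 difference was not tested. Of 30 acid-base genes tested, 12 were higher after warm dissociation and 1 was lower. They included the ammonia transporters Rhbg at 1.28 (SE 0.18, adjusted p = 0.000886) and Rhcg at 1.11 (SE 0.11, adjusted p = 7.0e-05), the intercalated cell proton pump subunit Atp6v1g3 at 1.02 (SE 0.21, adjusted p = 0.00898) and Foxi1, the transcription factor of intercalated cells, at 1.02 (SE 0.16, adjusted p = 0.00206).

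Resolved by class in fresh cold-dissociated C57BL/6J cells, Car2, Car12 and Car15 had their highest mean in the intercalated B-like class. Car3, Car4 and Car14 had theirs in proximal tubule-like classes. Car2 was highest in intercalated cells. In fresh cold-dissociated C57BL/6J cells the intercalated B-like class held 4230, 3033 and 2807 CPM of Car2 in the 3 libraries, the intercalated A-like class 3367, 2608 and 1664 CPM, and the principal-like class of the collecting duct 1503, 1089 and 793.7 CPM. The intercalated classes overlapped with each other but not with the principal-like class. Car2 also reached 723.8 CPM on average in the proximal tubule-like class without a segment name. In the endothelium-like class, taken as the level that free RNA could give, 5.735% of barcodes held a Car2 UMI at a median of 945 UMIs per barcode, against 89.38% of intercalated B-like barcodes at a median of 1030. An intercalated A-like or B-like class was the highest for Car2 in all 13 groups of cells or nuclei. In Balb/c female cells the intercalated B-like class averaged 2814 CPM and the A-like class 2451, and in Balb/c male cells they averaged 1272 and 1339.

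Car12 was more strongly concentrated. The intercalated B-like class was highest in all 13 groups, with 982, 1587 and 1324 CPM in fresh cold C57BL/6J cells. The intercalated A-like class followed at 561.2, 549.7 and 780.8 CPM and the proximal tubule S1-like class at 149.9, 196.6 and 203 CPM, with no overlap between these 3 classes. The intercalated B-like class held 25.92% of all Car12 UMIs of that group in 1.766% of its barcodes. In the endothelium-like class 0.8824% of barcodes held a Car12 UMI. The same order of classes was found in Balb/c male cells, at 1329, 366.7 and 228.1 CPM on average, and in Balb/c female cells, at 749.2, 297.5 and 231.5 CPM.

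Car14, the other transmembrane enzyme, was highest in the proximal tubule S1-like class of fresh male cells of both strains. That class held 242.5, 234.7 and 243.1 CPM in fresh cold C57BL/6J cells, above 101.8 CPM in the proximal tubule-like class without a segment name and 101 CPM in the S3-like class. It held 160.3, 161.4 and 175 CPM in Balb/c male cells. In Balb/c female cells a thin limb-like class of 132 barcodes reached 323.4, 92.01 and 338 CPM, which overlapped with the S1-like class at 144.1, 162.3 and 151.9. The thin limb-like class also had the highest mean in sucrose nuclei, at 110.8 against 70.16 CPM in the S1-like class, with overlap. In 3x500g and 1x2000g female nuclei the S1-like class had the highest mean, at 53.31 and 68.65 CPM against 48.87 and 57.64 CPM in the thin limb-like class, again with overlap. In the endothelium-like class of the C57BL/6J cells 0.7353% of barcodes held a Car14 UMI, against 30.07% in the S1-like class at median depths of 945 and 1655 UMIs.

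Car4, the glycolipid-anchored enzyme of the brush border, was highest in the proximal tubule S3-like class of male cells and was also found in the thick ascending limb. In fresh cold C57BL/6J cells the S3-like class held 369.8, 379.6 and 300.1 CPM and the thick ascending limb-like class 201.9, 213.9 and 177.1 CPM, with no overlap. All proximal tubule-like classes together held 89.05% of the Car4 UMIs. In Balb/c female cells the thick ascending limb-like class stood first with 192.5, 170.6 and 231.1 CPM, overlapping with the proximal tubule-like class at 158.3, 180.5 and 162. The proximal tubule-like classes held 76.4% of the Car4 UMIs of those cells and 34.77% of those of the female 3x500g nuclei, where they made up 55.01% and 32.77% of barcodes. A Car4 UMI was found in 2.353% of endothelium-like barcodes and 43.53% of S3-like barcodes of the C57BL/6J cells, at medians of 945 and 1541 UMIs.

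Car15, also glycolipid-anchored, was found on few UMIs, mainly in the intercalated B-like class and the thick ascending limb-like class. These held 45.84% and 34.43% of the Car15 UMIs of fresh cold C57BL/6J cells. The levels were 725.2, 317.5 and 215.9 CPM in the intercalated B-like class and 343.2, 132.1 and 209.9 CPM in the thick ascending limb-like class, on 48, 38 and 30 and on 34, 21 and 32 UMIs, and the libraries of the classes overlapped. In Balb/c cells the same classes held 86.88 and 56.44 CPM in males and 65.06 and 21.15 CPM in females. Female 3x500g nuclei differed, in that a macula densa-like class of 169 nuclei was highest at 18.8, 77.91 and 25.45 CPM on 3, 10 and 4 UMIs.

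Car3 was found in the proximal tubule of male cells. The proximal tubule-like class without a segment name held 289.2, 146.8 and 28.86 CPM and the S1-like class 232.5, 139.4 and 47.85 CPM in fresh cold C57BL/6J cells, with the third library lowest in both. Balb/c male cells held 258.4, 195.4 and 77.8 CPM and 213.7, 143.1 and 130.3 CPM in these classes. The S3-like class was far lower in both strains, at 5.975 and 10.37 CPM on average. In C57BL/6J cells 11.72% of S1-like barcodes held a Car3 UMI, against 1.324% of endothelium-like barcodes. Male 3x500g nuclei differed: the proximal tubule-like classes held 41.51% of the Car3 UMIs on average, in 43.79% of the nuclei. The thin limb-like class had the highest level there, with 16.07%, 31.82% and 0% of the UMIs in the 3 libraries. Of these UMIs, 28 lay in 5 nuclei.

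**Figure D2:**
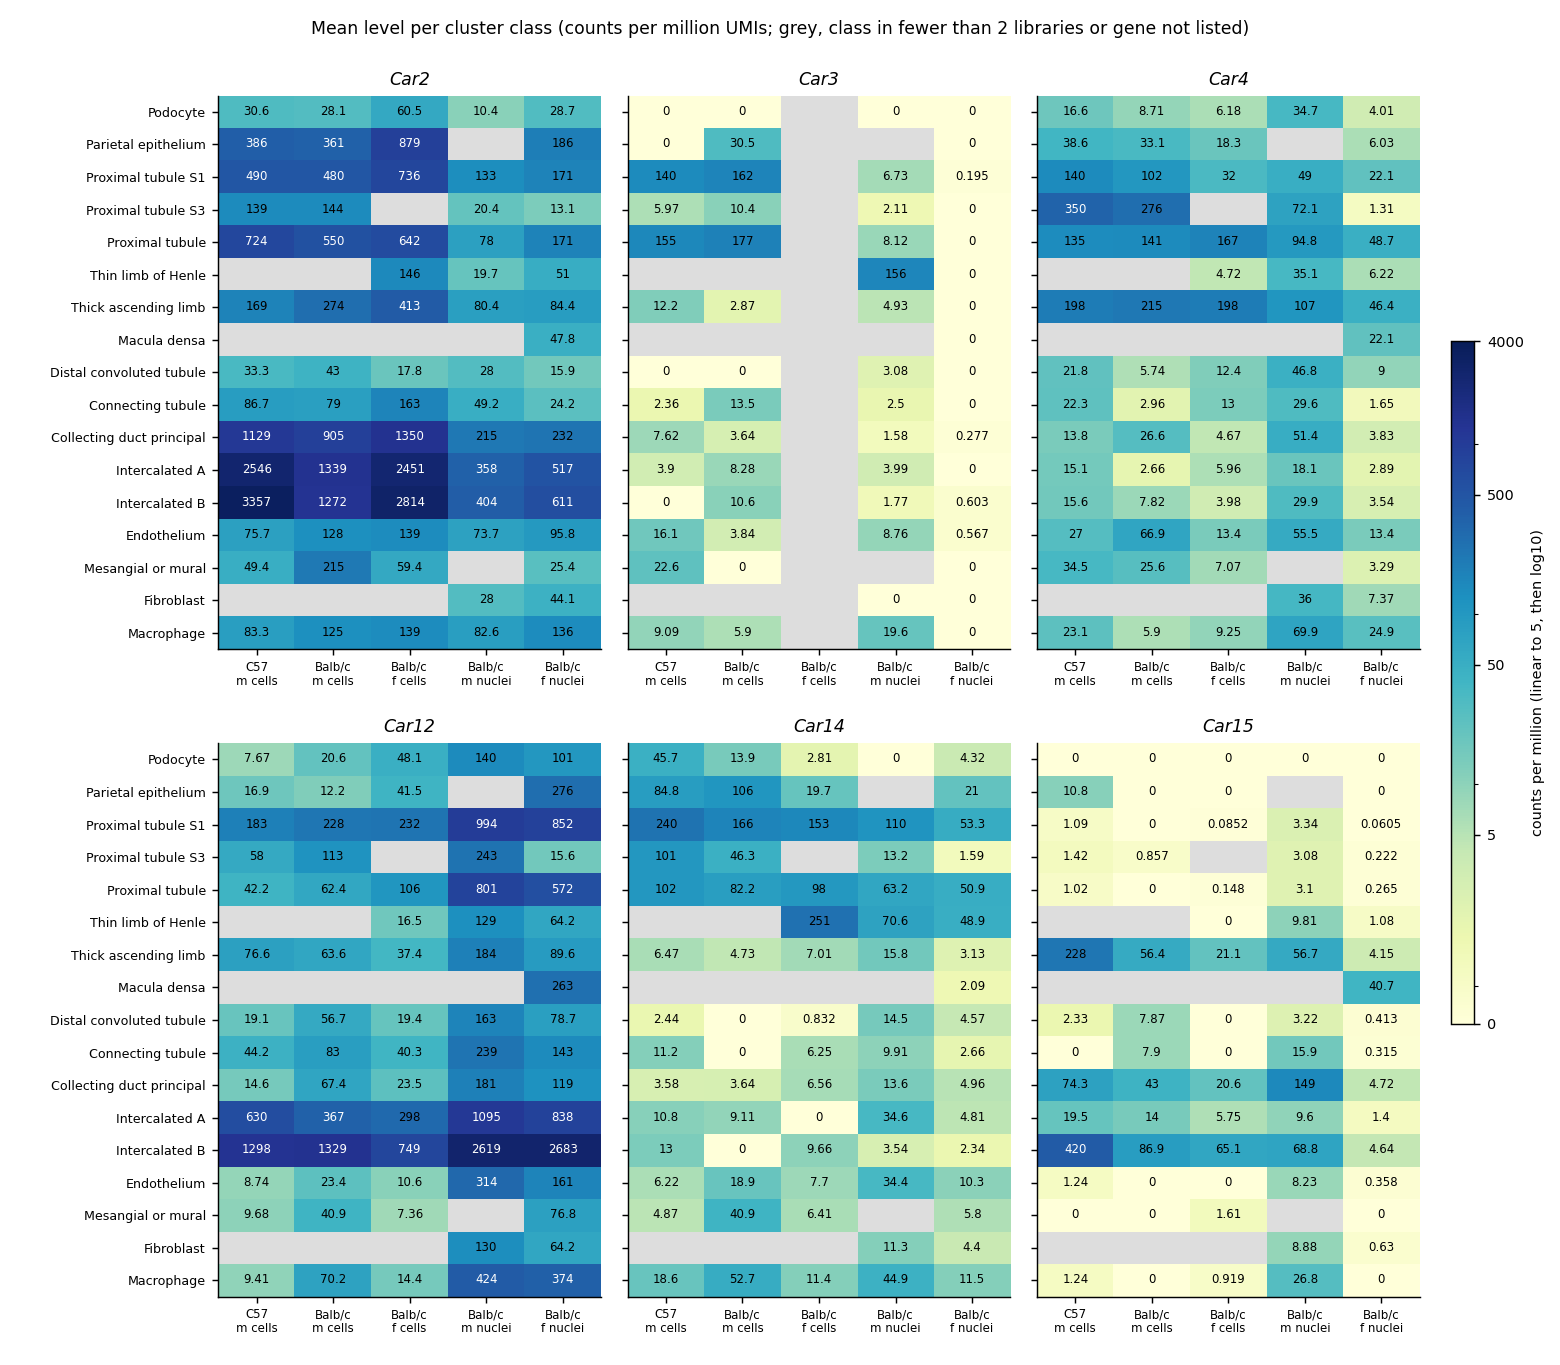
Colour map of the mean level of the 6 carbonic anhydrases by cluster class (rows) in fresh cold-dissociated cells and 3x500g nuclei (columns), in CPM on a colour scale that is linear at low values and then logarithmic; the number in each cell is the mean over libraries, and grey marks a class in under 2 libraries or a gene not listed. Car2 and Car12 are highest in the intercalated-like classes, and Car14 is at 240.1 CPM in the S1-like class of C57BL/6J cells against 6.221 CPM in the endothelium-like class.

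In fresh C57BL/6J cells, warm against cold dissociation was tested on UMIs summed per library, and 3 of the 6 members were called, all higher after warm dissociation, where 15.2% of all genes tested were called, 8.27% higher and 6.90% lower. The median log2 fold change of the members was 0.44, against -0.02 for all genes. Car4 went from 169.7, 131.7 and 106.2 CPM after cold to 200.9, 212.8 and 247.3 CPM after warm dissociation, without overlap, a log2 fold change of 0.85 (SE 0.16, adjusted p = 0.0102). Car2 went from 536, 416.3 and 361.7 to 622.4, 470.2 and 629.7 CPM, with overlap, a change of 0.53 (SE 0.15, adjusted p = 0.0412). Car14 rose by 0.35 (SE 0.09, adjusted p = 0.0351), from between 103.3 and 105.2 to between 116.7 and 124.2 CPM, opposite in direction to its change in bulk RNA of the suspensions. All 3 calls were lost without cold replicate 2 (adjusted p 0.0696 to 0.176). The Car2 call was also lost without cold replicate 3 or warm replicate 1 or 3, and the Car14 call without any library other than cold replicate 1. Scaled by library size alone, an alternative added after the data had been seen that left out the TMM factors and moved the median of all genes by -0.15, 4.06% of all genes were called higher and 13.8% lower, and of the members Car4 passed, at 0.70 (adjusted p = 0.0199), while Car2 at 0.39 (adjusted p = 0.114) and Car14 at 0.20 (adjusted p = 0.16) did not. Proximal tubule-like barcodes made up 60.5% of the cold and 67.2% of the warm libraries, and 9 of 15 proximal tubule markers were higher after warm dissociation. The part of this share in the 3 calls was not tested in whole libraries. The summed level of the erythroid markers, a cell type that also holds Car2, was 5703 to 17645 CPM in the cold and 2414 to 4651 CPM in the warm libraries.

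Within classes, 3 of 16 pairs of member and class were called in 6 classes, where 4.00% of all pairs tested were called. The share of all pairs, here over 14 classes, covers every class tested, also those in which no member was tested. The same holds for such shares below. Car12 was higher after warm dissociation in the principal-like class at 3.14 (SE 0.55, adjusted p = 0.00106). Car2 was higher in the thick ascending limb-like class at 1.25 (SE 0.22, adjusted p = 0.00265), from 212, 151 and 144.3 to 520.8, 338.9 and 377.8 CPM. In that class Car15 was lower at -1.63 (SE 0.34, adjusted p = 0.00849). Within the proximal tubule-like classes Car4 was at 0.48 (SE 0.14, adjusted p = 0.0596) and Car14 at 0.01 (SE 0.10, adjusted p = 0.957), and neither passed. Of the acid-base genes 1 was higher and 3 were lower of 26 tested in whole libraries. Atp6v1g3 was at -1.07 (SE 0.17, adjusted p = 0.00576), opposite to its change in bulk, and the anion exchanger Slc4a1 at -1.56 (SE 0.45, adjusted p = 0.0456). Slc4a1 is also a membrane protein of red cells, and 4 of 5 erythroid markers tested were lower after warm dissociation.

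Cryopreservation of C57BL/6J cells went with lower levels of most members. After cold dissociation 5 of the 6 members were lower in cryopreserved than in fresh cells, where 50.5% of all genes tested were called, 20.7% higher and 29.7% lower. After warm dissociation 4 were lower and 1 higher, where 59.7% were called, 25.5% higher and 34.2% lower. Scaled by library size alone, 26.6% of all genes were higher and 23.9% lower after cold and 36.5% higher and 25.4% lower after warm dissociation. Car4 fell by 4.93 on the log2 scale after cold dissociation (SE 0.47, adjusted p = 0.000137), to 0, 7.279 and 6.921 CPM. With the library at 0 set to 9 UMIs, its level in fresh cells was 20.3-fold that in cryopreserved cells. After warm dissociation it fell by 3.88 (SE 0.14, adjusted p = 2.1e-06), to 20.33, 19.83 and 17.35 CPM. Neither set of cryopreserved libraries came near the fresh ones.

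Car3 and Car14 were at 0 in every cryopreserved C57BL/6J library. Against 9 UMIs per library, the value if each of 9 barcodes held 1 UMI, Car14 was 20.4-fold lower after cold and 19.5-fold lower after warm dissociation, and Car3 12.3-fold and 19-fold lower. For Car3 after cold dissociation this was 7.95-fold without fresh replicate 1. These folds are not lower bounds, since a barcode can hold more than 1 UMI: in fresh cells 513 barcodes held 871 Car3 UMIs after cold dissociation and 666 barcodes held 1716 after warm dissociation. Their fitted fold changes are not bounds and are left out, and with these genes at 9 UMIs the median of the 6 members was -2.38 after either dissociation, against -0.16 for all genes. Car2 fell by less, by 1.14 (SE 0.19, adjusted p = 0.0019) to 232.3, 274.5 and 180 CPM after cold and by 0.88 (SE 0.18, adjusted p = 0.00363) to 480.6, 303.8 and 406.8 CPM after warm dissociation. All 5 erythroid markers tested were lower after either dissociation, with median log2 fold changes of -8.60 after cold and -7.38 after warm. Their part in the Car2 values was not tested. Car12 fell by 1.03 after cold dissociation (SE 0.25, adjusted p = 0.0101), from 82.29, 115.7 and 123.5 to 43.6, 61.66 and 74.88 CPM, and was at 0.09 after warm dissociation, where it did not pass (0.44, adjusted p = 0.0369, by library size alone).

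Car15 stood apart after warm dissociation. It was higher in cryopreserved cells at 2.17 (SE 0.20, adjusted p = 9.3e-05), at 47.16, 58.2 and 49.06 CPM against 9.785, 6.906 and 11.21 CPM in fresh cells. After cold dissociation its log2 fold change was -0.26 and did not pass. The class makeup moved with these results. Proximal tubule-like barcodes made up 60.5% of fresh and 0.317% of cryopreserved barcodes after cold dissociation, and 67.2% and 0.516% after warm dissociation, and all 15 proximal tubule markers were lower in both. Thick ascending limb-like barcodes made up 1.55% of cryopreserved cells after cold and 11.8% after warm dissociation, and their part in the Car15 difference was not tested.

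Within classes that remained after cryopreservation, 2 of 13 pairs were called after cold dissociation in 7 classes, where 6.34% of all pairs were called, and 5 of 11 after warm dissociation in 5 classes, where 8.35% were called. Car15 was higher in cryopreserved warm-dissociated cells at 1.63 in the intercalated B-like class (SE 0.31, adjusted p = 0.00305) and at 1.63 in the thick ascending limb-like class (SE 0.29, adjusted p = 0.00193). Car2 was lower in the same intercalated B-like class at -1.16 (SE 0.17, adjusted p = 0.000457), from 4758, 4210 and 4951 to 1470, 1992 and 1978 CPM, and the libraries did not overlap. After cold dissociation it was at -0.41 in that class (SE 0.22, adjusted p = 0.317). The other calls after warm dissociation were Car12 in the principal-like class, at 1.01, lost without any 1 of 4 libraries, and Car2 in the macrophage-like class, at -2.15, lost without cryopreserved replicate 2 or fresh replicate 2. Car2 was also lower in the endothelium-like class after cold dissociation, at -2.31 (SE 0.43, adjusted p = 0.00121), and in the macrophage-like class after cold dissociation, at -3.48 (SE 0.54, adjusted p = 1.4e-05). In the endothelium-like class 5.735% of fresh and 1.553% of cryopreserved barcodes held a Car2 UMI, and in the macrophage-like class 6.811% and 1.034%, at medians of 945 and 1019 and of 841 and 1472 UMIs. In the macrophage-like class after warm dissociation the shares were 10.17% and 2.037%, at 493 and 1190 UMIs. The endothelium-like class was the one taken for the level of free RNA and the macrophage-like class lay near it, so these calls are not read as changes of expression in those cells, and the part of free RNA was not tested. The endothelium-like pair was not among those tested without fresh replicate 2 or 3, nor the macrophage-like pair with doublets removed, which leaves 1 call in each of these settings. The proximal tubule-like classes held too few cryopreserved barcodes to be tested, 10 after cold and 18 after warm dissociation. Of the acid-base genes, 4 were higher and 10 lower of 26 tested after cold dissociation, and 12 higher and 5 lower of 24 after warm dissociation. After warm dissociation the anion exchangers of the intercalated cells Slc4a1 and Slc4a9 were higher, at 3.52 (SE 0.49, adjusted p = 0.000646) and 2.92 (SE 0.61, adjusted p = 0.00448), while Slc4a4, the bicarbonate cotransporter of the proximal tubule, was lower at -6.72 (SE 0.56, adjusted p = 6.0e-05). Intercalated A-like barcodes made up 0.264% of fresh and 2.95% of cryopreserved cells after warm dissociation, and the part of these shares and of the proximal tubule-like share in these values was not tested.

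**Figure D3:**
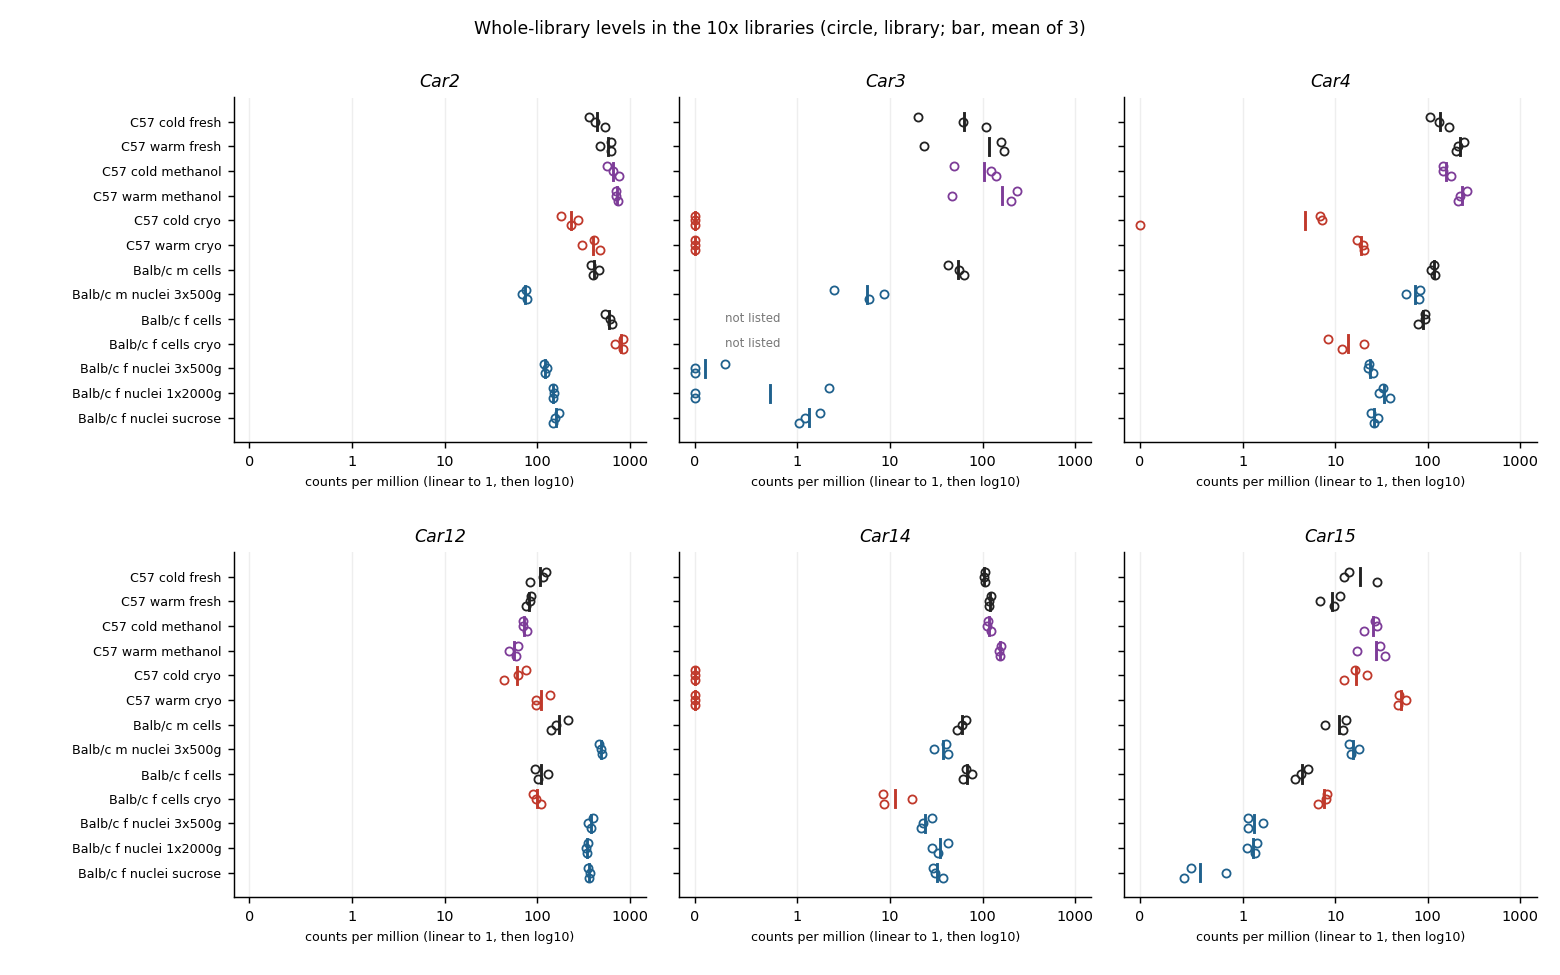
Level of the 6 carbonic anhydrases in each single-cell and single-nucleus library, in CPM of all UMIs apart from mitochondrially encoded genes, on an axis that is linear to 1 and then logarithmic; each circle is 1 library, each bar is the mean of 3, and colours mark fresh cells (black), methanol (purple), cryopreserved cells (red) and nuclei (blue). Car4 lies between 106.2 and 247.3 CPM in fresh C57BL/6J cells and at 20.33 CPM or below in cryopreserved ones, and Car12 is at 353.6 CPM or above in the 3x500g nuclei of both sexes.

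Balb/c female cells were cryopreserved for a shorter time, and 3 of 5 members tested were lower than in fresh cells, where 57.8% of all genes tested were called, 27.9% higher and 29.9% lower. Scaled by library size alone, which moved the median of all genes by 0.42, 55% were higher and 14.7% lower. Car4 fell by 3.11 (SE 0.23, adjusted p = 1.4e-05), from 78.23, 93.88 and 92.75 to 11.82, 20.6 and 8.415 CPM. Car14 fell by 3.00 (SE 0.23, adjusted p = 1.6e-05), from 61.17, 77.11 and 66.3 to 8.551, 17.35 and 8.415 CPM. Car12 was lower at -0.56 (SE 0.15, adjusted p = 0.0115), a call lost without cryopreserved replicate 3 (adjusted p = 0.0509) and by library size alone (-0.14, adjusted p = 0.373). In CPM it was at 101.1, 130.1 and 95.37 in fresh and 110.4, 97.3 and 90.63 in cryopreserved cells, with overlap. Car2 was at -0.02 (SE 0.11), and its direction rests on the scaling. It was at 640.3, 616.5 and 544.5 CPM in fresh and 850.8, 691.4 and 839.6 CPM in cryopreserved cells, without overlap, and passed by library size alone at 0.40 (adjusted p = 0.0113). The erythroid markers summed to 1704, 1372 and 2988 CPM in fresh cells and were not listed in cryopreserved cells. Their part in the Car2 value was not tested. Car15 was at 0.36 (SE 0.21) and did not pass, but did by library size alone at 0.78 (adjusted p = 0.00955). The median of these members was -0.56, against 0.00 for all genes. Proximal tubule-like barcodes made up 55.0% of fresh and 6.02% of cryopreserved cells, and intercalated A-like barcodes 0.773% and 7.88%. The part of these shares in the calls was not tested in whole libraries.

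Within the proximal tubule-like classes of these females, where 258 barcodes remained, Car4 passed and Car14 did not. The difference between these genes was not tested. Segments were merged in these classes, and the part of their makeup was not tested. Car4 fell by 1.61 (SE 0.21, adjusted p = 3.3e-05), from 115.8, 127.7 and 127 to 41.39, 45.01 and 52.85 CPM, on 7, 15 and 9 UMIs after cryopreservation. Car14 was at -0.19 (SE 0.17, adjusted p = 0.556) and did not pass. Car12 was higher in that class at 0.51 (SE 0.15, adjusted p = 0.0282), a call lost without cryopreserved replicate 2 or 3. In all, 5 of 25 pairs in 11 classes were called, where 3.85% of all pairs were called. The others were Car14 in the thin limb-like and parietal-like cells at -1.74 (SE 0.37, adjusted p = 0.0347, lost without fresh replicate 1 or 3), Car2 in the macrophage-like class at -1.33 (SE 0.32, adjusted p = 0.0192, lost without cryopreserved replicate 3 or fresh replicate 2) and Car2 in the thick ascending limb-like class at -0.52 (SE 0.14, adjusted p = 0.0337, lost without any 1 of 5 libraries). In the macrophage-like class 14.07% of fresh and 5.139% of cryopreserved barcodes held a Car2 UMI, near the 17.07% and 6.294% of the endothelium-like class, so that call is not read as a change of expression there. Of the acid-base genes 15 were higher and 7 lower of 27 tested. Slc4a1 at 2.79 (SE 0.36, adjusted p = 0.000228) and Slc4a9 at 2.11 (SE 0.34, adjusted p = 0.000768) were among the higher genes and Slc4a4 at -2.50 (SE 0.23, adjusted p = 3.6e-05) among the lower.

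After methanol fixation most of the members called were higher than in fresh cells. After cold dissociation 2 of 6 were called, both higher, where 28.2% of all genes tested were called, 14.5% higher and 13.6% lower. Scaled by library size alone, 7.47% were higher and 20.8% lower, and Car2 at 0.59 (adjusted p = 0.0209) and Car12 at -0.58 (adjusted p = 0.0233) were called. Car2 rose by 0.76 (SE 0.14, adjusted p = 0.00578), to 753.1, 659.1 and 572.3 CPM. Car14 rose by 0.32 (SE 0.09, adjusted p = 0.0323), a call lost without any 1 of 5 libraries and by library size alone (0.15, adjusted p = 0.255). Paired by suspension, in fits added after the data had been seen, 5 of 6 were called after cold dissociation, 4 higher and 1 lower, where 35.8% of all genes were called. The 3 added calls were Car3 at 1.01 (SE 0.17, adjusted p = 0.00405), Car4 at 0.40 (SE 0.10, adjusted p = 0.0181) and Car12 at -0.41 (SE 0.13, adjusted p = 0.0435), which without the pairing were at 0.88, 0.38 and -0.41 (adjusted p 0.241, 0.111 and 0.0814). After warm dissociation 3 were higher and 1 lower, where 17.3% were called, 6.97% higher and 10.3% lower. Car14 rose by 0.42 (SE 0.07, adjusted p = 0.0109), to 155.2, 151.5 and 156.4 CPM from at most 124.2 CPM, without overlap. Car2 was at 0.38 (SE 0.11, adjusted p = 0.0452, lost without any 1 of the 6 libraries and by library size alone), Car15 at 1.57 (SE 0.31, adjusted p = 0.0176, lost without fixed replicate 1 or fresh replicate 1 or 2) and Car12 at -0.51 (SE 0.10, adjusted p = 0.0181, lost without fresh replicate 2 or 3). Paired by suspension, Car3 was also called after warm dissociation, at 0.60 (SE 0.13, adjusted p = 0.0112), against 0.44 (adjusted p = 0.731) without the pairing. Suspension by suspension, Car3 was at 107.8, 61.53 and 19.99 CPM fresh and 139.7, 122.6 and 49.71 CPM fixed after cold dissociation, and at 169.9, 23.5 and 157.6 CPM fresh and 203.1, 46.54 and 232.8 CPM fixed after warm dissociation. It was higher after fixation in all 6 suspensions, while the groups overlapped. Beside the Car2 values, 3 of 5 erythroid markers tested were higher in fixed cells after cold and 4 of 5 after warm dissociation, and their part was not tested.

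By class, 8 of 22 pairs were called after cold dissociation and methanol, where 19.5% of all pairs were called. Car2 was higher in 6 of these classes: 2.06 in the distal convoluted tubule-like class (SE 0.41, adjusted p = 0.000586), 2.13 in the podocyte-like class (SE 0.44, adjusted p = 0.00158), 1.05 in the thick ascending limb-like class, 0.61 in the proximal tubule-like classes, 1.14 in the endothelium-like class and 1.17 in the macrophage-like class. The share of barcodes with a Car2 UMI in fresh cells was 5.735% in the endothelium-like, 6.811% in the macrophage-like, 6.215% in the podocyte-like and 4.333% in the distal convoluted tubule-like class, at median depths of 945, 841, 2080 and 1235 UMIs. In fixed cells it was 13.63%, 16.9%, 18.4% and 14.57%, at 939, 821, 1690 and 1032 UMIs. These 4 classes lay near the level taken for free RNA in both groups, so their calls are not read as changes of expression in those cells, and the part of free RNA in them was not tested. In the thick ascending limb-like class the share went from 16.91% to 31.99%. In the intercalated B-like class, where Car2 is highest, it was at 0.45 (SE 0.18, adjusted p = 0.14). The endothelium-like call was lost without fixed replicate 2, and the macrophage-like call without fixed replicate 2 or 3 or fresh replicate 2. Car12 was lower in the intercalated B-like class at -1.15 (adjusted p = 0.0314) and in the proximal tubule-like classes at -0.52 (adjusted p = 0.0252), and each of these calls was lost without 3 or 4 of the 6 libraries. After warm dissociation 3 of 15 pairs were called, where 9.36% were called, and each was lost without at least 4 of the 6 libraries. In the paired fits 10 pairs of member and class were called after cold dissociation, where 27% of all pairs were called, and 5 after warm dissociation, where 12.6% were. The added calls were Car2 in the connecting tubule-like class at 0.92 (SE 0.32, adjusted p = 0.0322) and, in the proximal tubule-like classes, Car3 at 0.72 after cold (SE 0.12, adjusted p = 2.6e-06) and 0.46 after warm dissociation (SE 0.11, adjusted p = 0.0116) and Car14 at 0.27 after warm dissociation (SE 0.08, adjusted p = 0.0313). Of the acid-base genes 1 was higher and 4 lower of 26 tested after cold dissociation, and 2 higher and 3 lower of 24 after warm dissociation.

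Nuclei against cells divided the members. In Balb/c males 4 of 6 were lower and 1 higher in 3x500g nuclei than in fresh cells, where 81.3% of all genes tested were called, 53.6% higher and 27.6% lower. In Balb/c females 4 of 5 were lower and 1 higher, where 84.8% were called, 43.8% higher and 41.0% lower. The median of the members was -0.83 in males and -2.15 in females, and the median of all genes tested was 0.84 and 0.10. Car12 was the gene that was higher in both sexes. It stood at 495.5, 482.5 and 466.5 CPM in male nuclei against 141.1, 160.9 and 215 CPM in male cells, a log2 fold change of 1.32 (SE 0.16, adjusted p = 0.000104), and was at 1.34 in females (SE 0.17, adjusted p = 6.8e-05). These changes stand beside a shift of all genes by 0.84 in males.

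Car2 was lower in nuclei at -2.66 in males (SE 0.13, adjusted p = 1.2e-06), with 398.3, 459.6 and 382.3 CPM in cells and 76.68, 68.64 and 76.16 CPM in nuclei. In females it was at -2.75 (SE 0.11, adjusted p = 4.9e-08), with 640.3, 616.5 and 544.5 CPM in cells and 120.2, 125.9 and 119 CPM in nuclei. In both sexes 4 of 5 erythroid markers tested were also lower in nuclei, and within the intercalated and proximal tubule-like classes Car2 was lower too, as given below. Car4 was at -0.82 in males (SE 0.14, adjusted p = 0.000847) and -2.32 in females (SE 0.12, adjusted p = 2.4e-07). Car14 was at -0.84 (SE 0.16, adjusted p = 0.00147) and -1.95 (SE 0.16, adjusted p = 3.5e-06). Car15 was lower in female nuclei at -2.15 (SE 0.26, adjusted p = 5.8e-05) and at 0.39 in male nuclei (adjusted p = 0.177). The part of the overlap with Gm20518 in the Car15 values, here and within classes, was not tested. Car3 was lower in male nuclei at -3.42 (SE 0.37, adjusted p = 6.4e-05), with 62.64, 56.34 and 42.56 CPM in cells and 5.964, 8.596 and 2.49 CPM in nuclei.

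Within classes the counts differed by member. Of 24 pairs tested in males, 10 were higher and 10 lower in nuclei, where 74.1% of all pairs were called. Of 34 pairs in females, 11 were higher and 19 lower, where 80.2% were called. Car12 was higher in nuclei in all 9 male and all 11 female classes tested. Car2 was lower in 6 of 7 male and 10 of 11 female classes, among them endothelium-like, macrophage-like or podocyte-like classes near the free RNA level, Car4 in 2 of 3 and 3 of 5, and Car14 in 1 of 1 and 3 of 4. In the proximal tubule-like classes Car4 was at -1.86 in males (SE 0.15, adjusted p = 3.1e-08) and -3.38 in females (SE 0.14, adjusted p = 9.4e-10), and Car14 at -1.46 (SE 0.15, adjusted p = 6.4e-07) and -2.52 (SE 0.11, adjusted p = 8.5e-10). In the intercalated B-like class Car12 was at 1.10 in males (SE 0.28, adjusted p = 0.000362) and 1.47 in females (SE 0.18, adjusted p = 4.4e-09). In the endothelium-like class, which held little of it in cells, it was at 4.14 in males (SE 0.55, adjusted p = 1.3e-06) and 3.68 in females (SE 0.32, adjusted p = 4.8e-08). A Car12 UMI was held by 19.37% of endothelium-like nuclei in males and 13.14% in females, against 0.7313% and 1.529% of endothelium-like cells. The part of free RNA in these values was not tested. Car2 was lower in the intercalated B-like class at -1.59 in males (SE 0.27, adjusted p = 7.1e-07) and -2.55 in females (SE 0.17, adjusted p = 9.3e-16), and in the proximal tubule-like classes at -2.90 (SE 0.16, adjusted p = 4.9e-10) and -3.32 (SE 0.10, adjusted p = 5.3e-11). Car3 was lower in the male proximal tubule-like classes at -4.83 (SE 0.32, adjusted p = 4.1e-09). Car15 was higher in the male principal-like class at 1.68 (SE 0.40, adjusted p = 0.00041) and lower in the female intercalated B-like, thick ascending limb-like and principal-like classes, at -4.13, -2.71 and -2.29 (adjusted p 1.4e-10, 1.3e-06 and 0.00023). The male endothelium-like call for Car2, at -0.92, was lost without any 1 of 5 libraries, and the female podocyte-like call for Car12, at 1.02, without any 1 of 3.

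**Figure D4:**
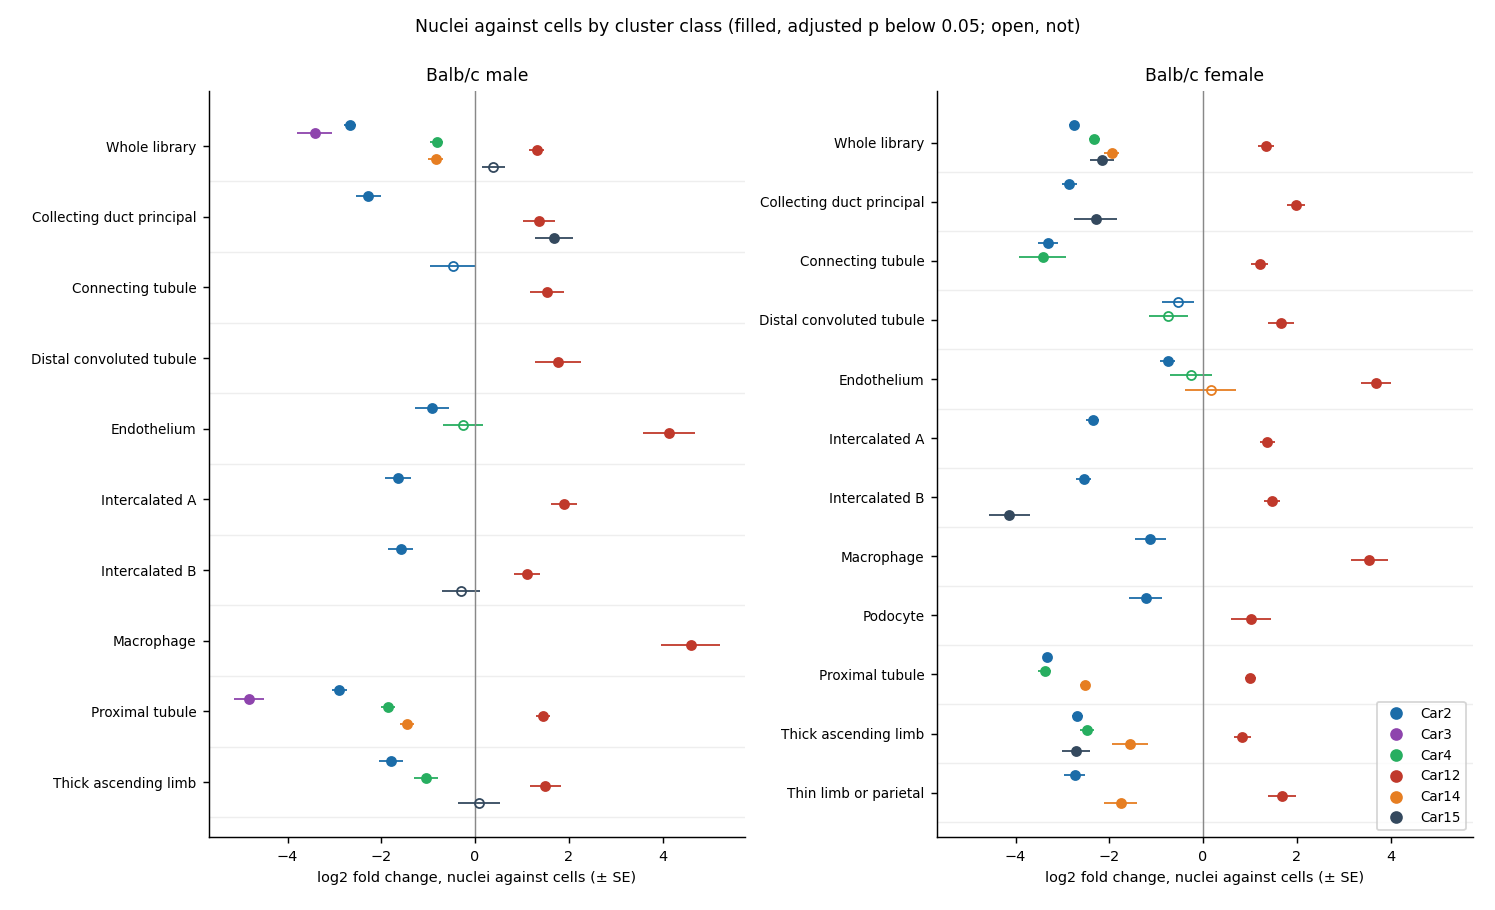
Log2 fold change of nuclei against cells for each member in whole libraries and in each class tested, in Balb/c males and females; bars are standard errors, and filled points passed an adjusted p of 0.05. Car12 lies above 0 in every class tested in both sexes, and Car2 lies below 0, at -3.32 in the female proximal tubule-like classes.

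The members differ in how much intron their genes hold. The gene span was 53160 bases for Car12, 14498 for Car2, 9012 for Car3, 8259 for Car4, 6924 for Car14 and 3089 for Car15. Across the protein-coding genes tested, which share the same libraries and are not independent replicates, the log2 fold change of nuclei against cells correlated with the log of the span at r = 0.46 in males (12587 genes) and 0.67 in females (12615 genes). With the genes split by span into 5 bins, the median rose from -1.05 in the bin of shortest to 2.78 in the bin of longest genes in males, and from -2.18 to 2.1 in females. Car12, at 1.32 and 1.34, stood beside medians of 1.18 in males and 0.79 in females in bin 4, the bin nearest in span. Car2, at -2.66 and -2.75, stood beside -0.10 and -0.82 in bin 2. Car14, at -0.84 and -1.95, stood beside -1.05 and -2.18 in bin 1, and Car15, the shortest member, was at 0.39 and -2.15. Car3 and Car4 lay in span between the medians of bins 1 and 2. With the values given above, Car3 in males was below the medians of both bins. Car4 was between them in males and below both in females. Nuclear libraries counted introns and cell libraries did not, so the assay and the counting cannot be told apart.

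**Figure D5:**
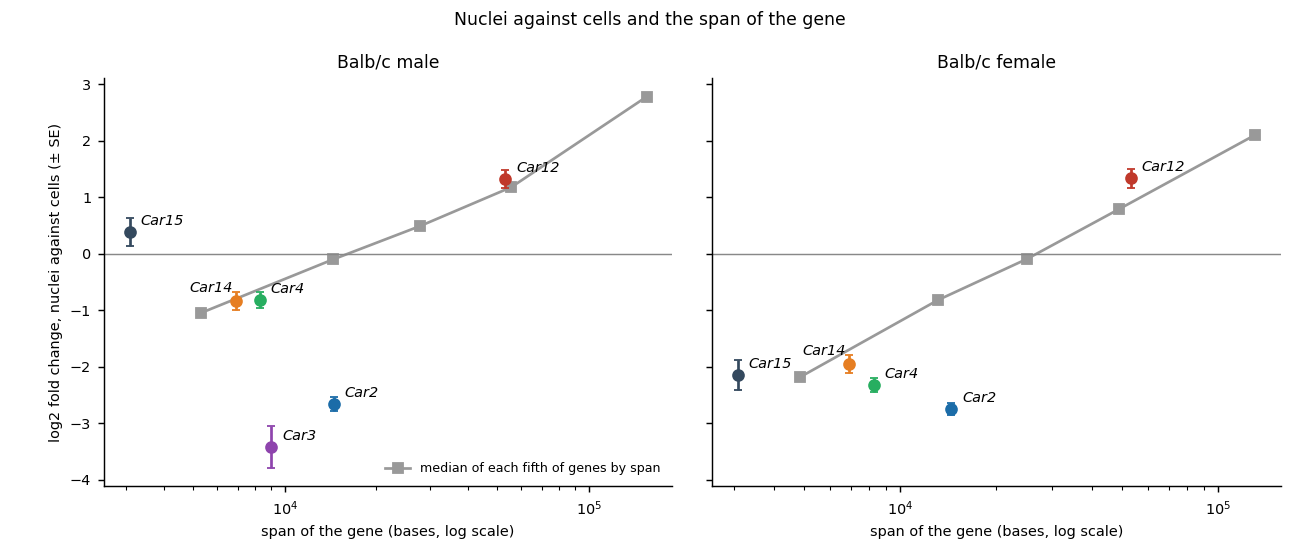
Log2 fold change of nuclei against cells plotted against gene span in bases on a log axis, for the 6 members and for the medians of 5 bins of genes by span, in Balb/c males and females. Car12 lies near the line of medians in both sexes, and Car2, at -2.66 in males and -2.75 in females, lies below it, as does Car3 in males.

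Of the acid-base genes in the same comparison, 13 were higher and 13 lower of 30 tested in males, and 15 higher and 13 lower of 31 in females. Of all genes tested 81.3% were called in males and 84.8% in females, so the number called is close to the share of all genes. In females the sodium-proton exchanger Slc9a3 was at 6.44 (SE 0.16, adjusted p = 4.8e-09) and Slc4a9 at 3.44 (SE 0.27, adjusted p = 2.7e-06), and the proton pump subunits Atp6v1e1 and Atp6v1g3 were at -2.97 (SE 0.11, adjusted p = 2.5e-08) and -2.89 (SE 0.27, adjusted p = 1.0e-05).

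The 3 ways of preparing female nuclei were compared with each other. With 1x2000g against 3x500g nuclei, 3 of 5 members were higher, where 34.9% of all genes tested were called, 19.5% higher and 15.4% lower: Car2 at 0.28 (SE 0.05, adjusted p = 0.00597), Car4 at 0.49 (SE 0.13, adjusted p = 0.024) and Car14 at 0.51 (SE 0.16, adjusted p = 0.0469). Without any 1 of 4 of the 6 libraries the Car4 and Car14 calls were lost. Car2 was at 148.7, 151.3 and 146.5 CPM in 1x2000g nuclei, above the 119 to 125.9 CPM of 3x500g nuclei in every library. With sucrose against 3x500g nuclei 3 of 6 members were higher and 1 lower, where 45.3% were called, 23.9% higher and 21.4% lower. Car2 was at 0.38 (SE 0.07, adjusted p = 0.00324), with 148.2, 156.4 and 172.1 CPM. Of 5 erythroid markers tested, 5 were higher in 1x2000g and 4 in sucrose than in 3x500g nuclei, and their part in the Car2 values of whole libraries was not tested. Car14, at 0.42 (SE 0.14, adjusted p = 0.0374), was lost without any 1 of 4 libraries, and Car15, at -1.16 (SE 0.33, adjusted p = 0.0218), without any 1 of 3. By class 15 of 38 pairs (1x2000g) and 11 of 38 pairs (sucrose) were called in 15 classes, where 13.1% and 19% of all pairs were called. With 1 library left out, 6 to 11 pairs (1x2000g) and 6 to 12 pairs (sucrose) were called. In sucrose nuclei Car2 was higher in the intercalated A-like class at 0.82 (SE 0.14, adjusted p = 0.00286) and the B-like class at 0.76 (SE 0.13, adjusted p = 0.00195). In 1x2000g nuclei Car12 was lower in the endothelium-like class at -0.81 (SE 0.12, adjusted p = 0.000295) and Car4 was higher in the thick ascending limb-like class at 0.76 (SE 0.14, adjusted p = 0.00278).

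Car3 in female nuclei was at 1.028, 1.202 and 1.76 CPM in sucrose and at 0, 0 and 0.2938 CPM in 3x500g nuclei. It was the other higher member (adjusted p = 0.0102, or 0.0578 without sucrose replicate 3), but its fitted fold change rests on libraries at 0 and is left out. With the 3x500g libraries set to 9 UMIs each, the mean in sucrose nuclei was 4.32-fold higher. Sucrose replicate 1 held 29 Car3 UMIs in 27 nuclei, replicate 2 held 36 in 13 nuclei and replicate 3 held 46 in 13 nuclei. Nuclei with at least 2 Car3 UMIs held 4, 28 and 36 of these UMIs. In 1x2000g nuclei all 77 Car3 UMIs were in replicate 3. Of the acid-base genes 3 were higher and 6 lower of 32 in 1x2000g nuclei, and 3 higher and 13 lower of 32 in sucrose nuclei. The latter included the proton pump subunit Atp6v1b1 at 0.80 (SE 0.10, adjusted p = 0.00107) and the proton pump Atp4a at 1.64 (SE 0.55, adjusted p = 0.0412) among the higher genes and the sodium-proton exchanger Slc9a4 at -0.60 (SE 0.21, adjusted p = 0.0482) among the lower.

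C57BL/6J against Balb/c male fresh cold-dissociated cells gave 1 call among the 6 members in whole libraries, where 14.2% of all genes tested were called, 8.78% higher and 5.42% lower. Scaled by library size alone, 5.94% were higher and 11.3% lower, and Car12 was also called, lower at -0.67 (adjusted p = 0.0497). Car14 was higher in C57BL/6J at 0.99 (SE 0.12, adjusted p = 0.00222), with 105.2, 103.3 and 105 CPM against 52.91, 60.22 and 66.04 CPM, and the call held without any 1 library. Within the proximal tubule-like classes it was at 0.79 (SE 0.14, adjusted p = 0.00152). By class 6 of 18 pairs were called, all higher in C57BL/6J, where 7.83% of all pairs were called. In the intercalated B-like class Car2 was at 1.37 (SE 0.21, adjusted p = 3.5e-05) and Car15 at 2.1 (SE 0.42, adjusted p = 0.000797). Car15 in the thick ascending limb-like class, at 2.14, Car2 in the intercalated A-like class, at 0.91, and Car12 there, at 0.87, were each lost without 2 or 3 of the libraries. Of the acid-base genes 3 were higher and 9 lower of 27 tested, among them Foxi1 at -1.75 (SE 0.16, adjusted p = 0.000715), the anion exchanger Slc26a4 at -1.40 (SE 0.20, adjusted p = 0.0046) and the potassium channel Kcnj10 at -1.39 (SE 0.18, adjusted p = 0.00308). Intercalated A-like barcodes made up 0.792% of the C57BL/6J and 3.63% of the Balb/c cells, and principal-like barcodes 2.12% and 5.89%. The part of these shares in the acid-base values was not tested. Strain, the AFAPIL.1DEL genotype, litter and experiment cannot be told apart in this comparison.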

How the data were processed

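The deposited files hold counts: reads per gene for bulk RNA and UMI counts per gene and barcode for the 10x libraries. For bulk RNA the authors trimmed reads with Trim Galore, removed ribosomal reads with TagDust2, aligned with STAR to GRCm38 and counted with featureCounts. For 10x data the authors ran Cell Ranger 2.1.1 on mm10, called barcodes with EmptyDrops, kept genes seen in at least 10 barcodes, filtered barcodes on genes, UMIs and mitochondrial share, and removed mitochondrial genes from nuclei. Introns were counted in nuclei. The male Balb/c and C57BL/6J libraries used v2 and the female Balb/c libraries v3 chemistry.

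From these counts, levels were computed as CPM (10x, without mitochondrially encoded genes) or TPM (bulk). Comparisons used edgeR 4.0.16 (TMM, filterByExpr, quasi-likelihood test, Benjamini-Hochberg over all genes tested, calls at adjusted p under 0.05) in R 4.3.3, on bulk counts, on UMIs summed per library and on UMIs summed per library and class, for classes with at least 10 barcodes in at least 2 libraries of each group. Standard errors are the log2 fold change over the square root of F. Barcodes were clustered in 5 sets with scanpy 1.11.5 (2000 variable genes, 30 components, 20 neighbours, Leiden resolution 2), and a cluster was named from at least 3 markers. Segments of the proximal tubule, and thin limb with parietal cells, were merged for the tests after the data had been seen. Doublets were scored and kept. Replicates are 3 libraries a group, which the series calls biological replicates. The headers of the C57BL/6J 10x tables name the suspension each library came from, which pairs stored with fresh libraries of 1 dissociation. Cold and warm libraries share only the numbers. Deviations from the group means in libraries of 1 number correlated at 0.45 to 0.63 across 2583 to 2706 genes for methanol against fresh cells and at -0.09 to 0.19 for cryopreserved against fresh. Fits with the suspension as a block, and scaling by library size without TMM factors, were added after the data had been seen. Standard deviations and standard errors include variation between the libraries of a group. Limits for members at 0 rest on the minimum of 10 barcodes per gene.

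The members and gene lists were chosen with earlier results of these data known. Named genes were the members, the other carbonic anhydrases called in bulk, up to 4 acid-base genes per comparison with the largest changes among those called, and the 3 genes most alike each member. The text gives only part of the genes that this rule names, and one of them is not reported here. Alternatives were DESeq2 1.42.0, RLE normalization, no filter, mitochondrial genes kept, doublets removed, Leiden resolution 1, edgeR's exact test, CPM for TPM, and leaving out each library. In simulated data for bulk intact kidney against suspension (16330 genes), 84.9% of genes changed by 1 and 98% of those changed by 2 on the log2 scale were recovered, and 9.6% of calls were false. In simulated data for nuclei against cells of Balb/c females (13676 genes), 77.2% of genes changed by 1 and 94.3% of those changed by 2 on the log2 scale were recovered, and 4.47% of calls were false.

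Marker lists beside the members gave, as higher and lower counts of those tested: erythroid 0 and 5 of 6 (bulk warm against cold), proximal tubule 5 and 4 of 15, skeletal muscle 0 and 2 of 7 and adipocyte 1 and 0 of 3 (bulk intact against suspension), and adipocyte 2 and 0 of 2 (male nuclei) and 1 and 1 of 3 (female nuclei against cells).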

Additional observations from a re-analysis of the deposited data

Results flagged for a closer look

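The change of Car15 with cryopreservation in C57BL/6J cells differed between the ways of dissociating the kidney in a test without pairing. In this test of the difference itself, the log2 fold change of cryopreserved against fresh cells was 2.15 after warm and -0.23 after cold dissociation, a difference of 2.39 (SE 0.46, edgeR adjusted p = 0.0134), where 6.01% of all genes tested differed. All 3 warm cryopreserved libraries were above all 3 warm fresh libraries, while the cold libraries overlapped. With the 6 suspensions as blocks, a fit added after the data had been seen, the difference was 2.34 (SE 0.52) and no longer passed (adjusted p = 0.0765). Car15 shares exon bases with Gm20518, as given above.

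The change of 3 members in nuclei against cells differed between Balb/c females and males, where 54.6% of all genes tested differed, so that 3 of 5 members is close to the share of all genes. The median change of all genes was 0.10 in females and 0.84 in males. Car4 was at -2.34 in females and -0.73 in males, a difference of -1.62 (SE 0.20, adjusted p = 3.6e-05). Car14 was at -1.97 and -0.75, a difference of -1.23 (SE 0.25, adjusted p = 0.00116). Car15 was at -2.16 and 0.48, a difference of -2.65 (SE 0.34, adjusted p = 4.8e-05). The male cell libraries held only 20, 20 and 18 Car15 UMIs. The span of Car15 lies almost wholly within that of Gm20518, as given above, and the part of this overlap was not tested. Sex, age and the version of the 10x chemistry all differed between these experiments and cannot be told apart. For Car12 the difference was -0.09 (adjusted p = 0.758) and for Car2 -0.20 (adjusted p = 0.382). The test of these differences was added after the data had been seen.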

How the results depend on the processing

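No call of a member changed direction under any alternative run, but Car2 in cryopreserved Balb/c female cells, at -0.02 and not called, was called at 0.40 by library size alone. With the suspension as a replicate block in stored against fresh C57BL/6J cells, added after the data had been seen, 5 members were called in whole libraries after methanol and cold dissociation and 5 pairs of member and class after methanol and warm dissociation, against 2 and 3 without it. In whole libraries after methanol and warm dissociation 5 members were called. Apart from the calls named beside the results and the Car15 difference between dissociations given above, it changed no other call of a member. Warm and cold libraries share only a number: deviations correlated at -0.15 to 0.33 within a number and -0.38 to 0.36 between numbers. With that number as a block 2 members and 4 pairs were called for fresh warm against cold, against 3 and 3, with Car14 lost and Car15 in the intercalated B-like class gained. By library size alone, also added after the data had been seen and run on whole libraries, 1 member was called for fresh warm against cold and 2 for C57BL/6J against Balb/c, against 3 and 1, and the median of all genes moved by -0.18 to 0.44. Bulk and Balb/c libraries were not paired, since neither labels nor headers tie a library of a group to one of another. Where 1 library was left out, the number of members called in whole libraries ran from 0 to 1 (bulk warm against cold), 3 to 4 (bulk intact against suspension), 0 to 4 (fresh warm against cold), 5 to 5 (cryopreserved, cold and warm), 1 to 5 (methanol, cold), 1 to 3 (methanol, warm), 2 to 3 (cryopreserved, Balb/c female), 5 to 5 (nuclei against cells, either sex), 1 to 3 (1x2000g), 2 to 4 (sucrose) and 1 to 1 (C57BL/6J against Balb/c). The number of pairs of member and class called ran from 3 to 6 (fresh warm against cold), 1 to 3 (cryopreserved, cold), 3 to 5 (cryopreserved, warm), 4 to 11 (methanol, cold), 0 to 2 (methanol, warm), 3 to 7 (cryopreserved, Balb/c female), 19 to 21 (nuclei, male), 29 to 30 (nuclei, female), 6 to 11 (1x2000g), 6 to 12 (sucrose) and 3 to 7 (C57BL/6J against Balb/c).

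DESeq2 called 5 pairs for fresh warm against cold, 5 and 1 for methanol after cold and warm dissociation, 6 for 1x2000g and 7 for sucrose. Without a filter on low counts, 2 members were called in bulk warm against cold, and 10, 12 and 9 pairs in cells cryopreserved after cold dissociation, after warm dissociation and from Balb/c females. With predicted doublets removed, 1 pair was called after cold dissociation and cryopreservation. With CPM in place of TPM, 13 of 30 places in the order of bulk levels stayed, and Car12 in place of Car2 had the highest mean in all 5 groups. The causes of these changes were not tested. The highest class of Car2 after warm dissociation and cryopreservation, of Car14 in 1x2000g and 3x500g nuclei and of Car15 after cold dissociation and cryopreservation changed at a Leiden resolution of 1. In simulated data, 51.6% of genes changed by 1 on the log2 scale were recovered in the intercalated B-like class of Balb/c females and 77.2% in their whole libraries, for nuclei against cells, so smaller changes in classes can be missed.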

Other observations

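Nuclei with at least 2 Car3 UMIs, a limit chosen after the values were seen, were set beside the other nuclei for adipocyte transcripts, as a description. In sucrose nuclei 10 nuclei held at least 2 Car3 UMIs. Of these, 8 held a UMI of the adipocyte list, or 80%, against 8.29% of the other nuclei, and adipocyte transcripts stood at 3852 against 26.64 CPM. In 1x2000g nuclei 5 of 7 such nuclei, or 71.4%, held an adipocyte UMI against 9.52% of the others, and in male 3x500g nuclei 9 of 17, or 52.9%, against 2.84%. In female 3x500g nuclei it was 1 of 2. These nuclei held 68 of 111 Car3 UMIs in sucrose and 68 of 141 in male nuclei, and in male replicate 3 the 19 Car3 UMIs lay in 19 nuclei, with 0 nuclei at 2 or more. Adipoq, the best known fat cell marker, was found in 1 of the male nuclei with at least 2 Car3 UMIs and in 0 of the female ones. Median depth was 3708 UMIs in the sucrose nuclei with at least 2 Car3 UMIs and 3309 in the others. Among Balb/c male cells with at least 2 Car3 UMIs, 0 of 51 held an adipocyte UMI, against 0.472% of the others. A count of 0 in 51 cells still allows a share of about 5.88%. In C57BL/6J cells, where only 1 gene of the adipocyte list was listed, 5 of 169 did so in fresh cells after cold and 14 of 268 after warm dissociation. These shares were 2.96% and 5.22%, against 1.65% and 2.25% of the others. In methanol-fixed cells it was 2 of 204 and 0 of 106.

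The genes whose levels across classes were most like those of each member are given with Pearson's r of log2(CPM + 1), over 18 classes of fresh cold-dissociated C57BL/6J cells that share libraries, and with no p. Car2 was nearest to Coa3 (r = 0.878), Dact2 (0.855) and Acp6 (0.836), Car3 to Agxt2 (0.817), Ccdc151 (0.811) and D630023F18Rik (0.786), Car4 to Por (0.904), Snx7 (0.898) and Sardh (0.875), Car12 to the chloride channel Clcn5 (0.898), Tsfm (0.886) and the proton pump subunit Atp6v1a (0.882), Car14 to the folate receptor Folr1 (0.909), Sfxn1 (0.859) and Bdh2 (0.857), and Car15 to Plet1 (0.907), Nipal2 (0.837) and Klhdc8a (0.798). Among the members, Car2 and Car12 were at r = 0.790. In 19 classes of Balb/c female nuclei Car12 was the gene nearest to Car2, at r = 0.836, and Car14 was nearest to Idh1 (0.921).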
